A study of Mus musculus with 3 samples.

Results

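Genomic imprinting leaves a gene active on the copy inherited from 1 parent and silent on the other. Here 42 mouse imprinted genes and close neighbours, chosen from a list of known members of 16 imprinted clusters, were followed through maps of H2AK119ub, histone H2A with a single ubiquitin on the lysine that gives the mark its name. A region was tied to a member when the deposited list gave the member's name for it or when it overlapped the member's RefSeq gene bounds. By this rule 30 of 7838 regions in replicate 1 and 23 of 8093 in replicate 2 belonged to members. Of the 42, 36 are protein-coding, and the autosomes plus X hold 21631 genes of that kind in the reference.

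The cells were EpCAM-sorted lingual epithelium of control mice at postnatal day 0, with the circumvallate papillae cut away. EpCAM is a surface protein of epithelial cells. Chromatin immunoprecipitation sequencing (ChIP-seq) gave 2 H2AK119ub replicates, described as biological, and 1 input library that was not analysed here. The samples form 1 group without a mutant or treated counterpart, the alleles behind "Control" and any pooling of animals are not given, and the lists hold no heights or read counts, so depth is unknown. All intervals below are exact (Clopper-Pearson) and cover counting error only.

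H2AK119ub is laid down by Polycomb repressive complex 1 and marks genes held silent or at low output. Imprinted clusters are controlled by imprinting control regions that carry DNA methylation on the copy from 1 parent, and in several clusters a long noncoding RNA such as Kcnq1ot1 or Airn silences neighbours on its own chromosome, with Polycomb complexes as known partners in the placenta. The sequenced reads were not separated by parental copy in these lists, so a region shows that the mark was called at a locus and not on which copy. As a check on the label, H2AK119ub regions were absent in both lists at Epcam, Krt14, Trp63 and Cdh1 of 7 epithelial genes, while Krt15 was tied to a region in both, Krt5 in replicate 2 alone and Itga6 in replicate 1 alone. Of genes of other cell types, Myod1 and Pax7 (2 of 2 muscle genes) and Twist1 and Pdgfra (2 of 4 mesenchyme genes) had regions in both, Col1a1 had one in replicate 1 alone, and Col1a2, Ptprc and Pecam1 had none. A repressive mark does not measure expression, so these values do not show which cells were present.

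The promoter sequences below show the windows of 6 members that lay under a region in both replicates, with those of Peg3 and Ndn, which lay under none, for contrast. Each runs 5′ to 3′ from 250 bases before to 50 bases after the outermost transcription start that RefSeq lists, with CpG dinucleotides, the site of DNA methylation, in capitals. Peg3 and Ndn were chosen after their values were seen.
Grb10 (GRCm38.p6, chr11:12037371-12037670, minus strand): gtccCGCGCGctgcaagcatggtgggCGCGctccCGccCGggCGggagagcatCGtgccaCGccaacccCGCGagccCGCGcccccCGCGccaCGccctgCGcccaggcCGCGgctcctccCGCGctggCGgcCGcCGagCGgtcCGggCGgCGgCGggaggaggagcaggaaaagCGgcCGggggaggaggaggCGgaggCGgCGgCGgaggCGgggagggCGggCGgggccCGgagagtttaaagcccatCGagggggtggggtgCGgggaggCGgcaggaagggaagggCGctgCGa
Dlk1 (GRCm38.p6, chr12:109452573-109452872, plus strand): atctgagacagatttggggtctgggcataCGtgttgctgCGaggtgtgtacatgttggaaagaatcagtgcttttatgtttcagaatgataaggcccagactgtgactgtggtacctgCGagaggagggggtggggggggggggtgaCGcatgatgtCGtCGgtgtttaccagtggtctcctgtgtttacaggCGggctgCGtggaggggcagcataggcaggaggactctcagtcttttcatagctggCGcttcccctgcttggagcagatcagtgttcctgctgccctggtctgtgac
Igf2 (GRCm38.p6, chr7:142666767-142667066, minus strand): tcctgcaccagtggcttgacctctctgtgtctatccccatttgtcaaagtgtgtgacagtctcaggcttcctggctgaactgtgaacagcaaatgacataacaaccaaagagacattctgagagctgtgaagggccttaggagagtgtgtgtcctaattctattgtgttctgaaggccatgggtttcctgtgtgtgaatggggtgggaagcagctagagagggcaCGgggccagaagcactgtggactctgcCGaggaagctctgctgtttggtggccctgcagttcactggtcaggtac
Dio3 (GRCm38.p6, chr12:110278980-110279279, plus strand): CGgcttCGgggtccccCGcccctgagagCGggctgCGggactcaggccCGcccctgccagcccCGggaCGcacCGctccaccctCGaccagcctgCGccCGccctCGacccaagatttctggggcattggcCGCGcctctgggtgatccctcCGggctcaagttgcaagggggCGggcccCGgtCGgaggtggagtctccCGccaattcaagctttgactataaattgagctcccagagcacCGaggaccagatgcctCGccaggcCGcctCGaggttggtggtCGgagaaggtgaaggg
Gnas (GRCm38.p6, chr2:174284070-174284369, plus strand): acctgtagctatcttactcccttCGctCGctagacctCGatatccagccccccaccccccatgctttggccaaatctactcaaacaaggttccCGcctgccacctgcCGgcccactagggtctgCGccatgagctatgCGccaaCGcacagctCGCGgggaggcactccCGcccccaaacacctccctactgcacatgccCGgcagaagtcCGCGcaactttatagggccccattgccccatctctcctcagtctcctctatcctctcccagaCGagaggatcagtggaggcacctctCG
Mest (GRCm38.p6, chr6:30733256-30733555, plus strand): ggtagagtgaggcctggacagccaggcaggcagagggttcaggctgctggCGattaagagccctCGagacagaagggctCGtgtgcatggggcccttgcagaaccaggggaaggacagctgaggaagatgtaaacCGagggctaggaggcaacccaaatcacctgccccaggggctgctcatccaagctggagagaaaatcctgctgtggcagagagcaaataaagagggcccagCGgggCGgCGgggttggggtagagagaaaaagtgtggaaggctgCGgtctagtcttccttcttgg
Peg3 (GRCm38.p6, chr7:6730370-6730669, minus strand): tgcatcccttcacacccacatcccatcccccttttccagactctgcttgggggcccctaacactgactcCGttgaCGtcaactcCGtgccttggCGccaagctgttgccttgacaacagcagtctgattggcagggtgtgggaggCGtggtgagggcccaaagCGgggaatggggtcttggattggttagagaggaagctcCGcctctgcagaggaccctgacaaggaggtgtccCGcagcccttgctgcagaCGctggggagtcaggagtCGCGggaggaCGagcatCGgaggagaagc
Ndn (GRCm38.p6, chr7:62348027-62348326, plus strand): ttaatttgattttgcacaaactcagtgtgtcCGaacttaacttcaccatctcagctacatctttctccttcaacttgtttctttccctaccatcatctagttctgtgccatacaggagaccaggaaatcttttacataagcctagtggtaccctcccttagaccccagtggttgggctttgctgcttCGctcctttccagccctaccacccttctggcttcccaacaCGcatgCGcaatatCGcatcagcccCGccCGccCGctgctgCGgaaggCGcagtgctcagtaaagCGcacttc

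H2AK119ub was called in both replicates at promoters that include those of Igf2, Grb10, Dlk1, Dio3 and Gnas, and at no member of the Peg3, Zrsr1, Impact and Peg13 clusters in either. Of the 42 members, 16 were tied to a region in both replicates (38.1%, exact 95% interval 23.6 to 54.4%), 7 in 1 replicate and 19 in neither. Among the 36 protein-coding members the count in both was 14 (38.9%, 23.1 to 56.5%), against 16.8% of all protein-coding genes by the same rule. A further 5 of the 36 had a region in 1 replicate and 17 in neither, against 2530 and 15439 of 21595 other protein-coding genes. With overlap of the gene bounds alone, the count in both replicates was 10 of 36 (27.8%), against 13.3% of protein-coding genes. A promoter region, as classed in the deposited lists, named 9 of the 36 in both replicates (25%, 12.1 to 42.2%), against 8.82% of protein-coding genes. Members of a cluster share regions and were picked with earlier results known, so these shares carry no test. The median member, noncoding members included, spans 23853 bp, against 17329 bp for protein-coding genes. A longer gene has more room for an overlap, and whether length bears on these shares was not tested.

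**Figure D1:**
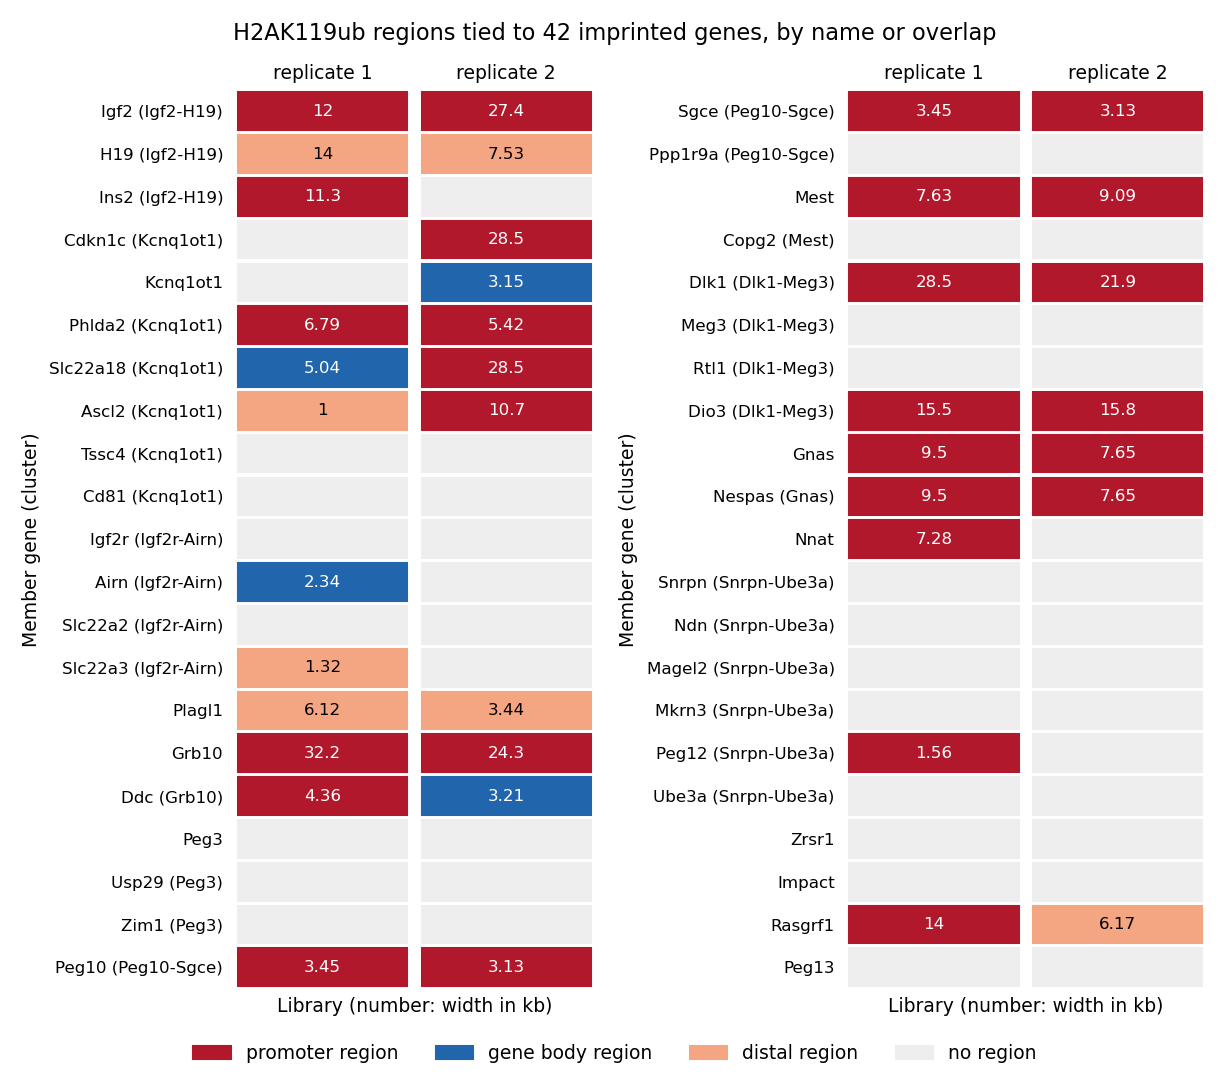
H2AK119ub regions at each of the 42 members (rows, with the cluster in brackets) in the 2 libraries (columns). Colour gives the class of the region, taking promoter before gene body before distal where a member had several, and the number is the width in kb of the widest region of that class. Promoter regions named for Igf2, Grb10, Dlk1, Dio3, Gnas, Mest, Peg10, Sgce and Phlda2 stand in both columns, while Nnat, Ins2 and Cdkn1c are filled in 1 column. That of Phlda2 in replicate 2 lies 0.606 kb from the gene.

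The 9 members named for a promoter region in both replicates were Igf2, Phlda2, Grb10, Peg10, Sgce, Mest, Dlk1, Dio3 and Gnas. The other members tied to regions in both were H19, Slc22a18, Ascl2, Plagl1, Ddc, Nespas and Rasgrf1. Counted by cluster, 9 of 16 had such a member. Member regions had a median width of 5.80 kb in replicate 1 and 6.17 kb in replicate 2, against 4.86 and 4.22 kb for all regions. Promoter regions of members had medians of 10.4 and 10.7 kb, against 8.08 and 6.84 kb for all promoter regions, and 8 of 14 and 8 of 11 exceeded the list's median. Gene body medians were 3.91 and 3.21 kb, against 3.70 and 3.34 kb, and distal medians 4.79 and 5.02 kb, against 3.84 and 3.29 kb. Promoter regions made up 46.7 and 47.8% of member regions, against 34.5 and 32.4% of all regions. Intergenic regions made up 0% of member regions, against 15.7 and 15.9%. Whether this mix bears on the widths was not tested. Of the member regions, 63.3% in replicate 1 (19 of 30, interval 43.9 to 80.1%) and 87.0% in replicate 2 (20 of 23, 66.4 to 97.2%) overlapped a region of the other replicate, against 61.1% and 61.2% of all regions.

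The Igf2-H19 cluster, on distal chromosome 7, was the most densely covered of the multi-gene clusters. Regions covered 44.8% of its 104 kb in replicate 1 and 37.6% in replicate 2 (41.2% ± 5.11, SD, n = 2). With 50 kb added on each side of the span, the mean fell to 21.5%. Igf2 encodes the fetal growth factor IGF2 and is transcribed from the paternal copy. In replicate 1 a promoter region of 12.0 kb named Igf2 (chr7:142656365-142668336) and a second of 11.4 kb, which carried only the name of the microRNA gene Mir483, reached into the gene's other end. In replicate 2 a single region of 27.4 kb (chr7:142644141-142671513) overlapped both stretches, and the lists had 82.6% of the joined length in common. All 4 annotated Igf2 starts lay under a region in both replicates, the outermost with 2 CpG dinucleotides in its window and another with 24.

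Ins2, one of the mouse insulin genes, had an 11.3 kb promoter region in replicate 1 and none in replicate 2, where the nearest region ended 7.14 kb away. H19, a noncoding RNA made from the maternal copy, had no region over it. Its name came from distal regions 27.9 kb away in replicate 1 and 24.8 and 33.6 kb away in replicate 2, which lie between H19 and Igf2. The regions over Igf2 and over Dio3, described below, also took in microRNA genes, Mir483 and Mir1247, whose mature sequences follow with the seed (bases 2 to 8) in capitals. The 4 seeds differ from each other.
mmu-miR-483-3p: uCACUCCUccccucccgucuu
mmu-miR-483-5p: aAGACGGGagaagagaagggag
mmu-miR-1247-3p: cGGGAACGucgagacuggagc
mmu-miR-1247-5p: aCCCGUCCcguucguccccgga

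In the neighbouring Kcnq1ot1 cluster, Cdkn1c, Phlda2 and Ascl2 were covered in 1 replicate each. Regions covered 5.85% of its 536 kb in replicate 1 and 14.8% in replicate 2 (10.3% ± 6.33, SD, n = 2). Cdkn1c, the cell cycle inhibitor p57, lay wholly under a 28.5 kb promoter region in replicate 2 (chr7:143455623-143484113), which also reached into Slc22a18, a transporter gene. In replicate 1 the nearest region to Cdkn1c lay 18.2 kb away, and Slc22a18 had a gene body region of 5.04 kb. Phlda2, which restrains placental growth, was named for promoter regions of 6.79 and 5.42 kb. That of replicate 1 covered the gene, that of replicate 2 stopped 0.606 kb short of it, and the lists had 7.56% of the joined length in common. Ascl2, a transcription factor of the trophoblast, was covered by a 10.7 kb promoter region in replicate 2, whereas replicate 1 held a distal region of 1.00 kb. Tssc4 and Cd81, a tetraspanin gene, were free of regions, with the nearest to Cd81 at 45 kb in replicate 1 and 42 kb in replicate 2.

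The start of Kcnq1ot1, the paternally expressed RNA that gives the cluster its name, was free of regions in both lists. The nearest, named for Kcnq1, lay 12.4 kb before it in replicate 1 and 11.6 kb before it in replicate 2. A region of 3.15 kb within Kcnq1ot1 was present in replicate 2 alone. Kcnq1, the potassium channel gene that hosts it, had 2 gene body regions in replicate 1 and 5 in replicate 2, up to 6.67 and 7.28 kb wide.

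Grb10, an adaptor protein that dampens insulin and IGF signalling, had the widest promoter region of the members in replicate 1. It measured 32.2 kb there (chr11:12013652-12045830) and 24.3 kb in replicate 2 (chr11:12017398-12041665). With a further distal region of 8.31 kb that replicate 2 gave to Grb10, the lists had 71.3% of the joined length in common. The region ran from 8.41 kb before the outermost start to 23.8 kb after it in replicate 1, and from 4.25 kb before to 20 kb after in replicate 2. The window of that start had 45 CpG dinucleotides, the most among the outermost windows of the 33 members with one. Its neighbour Ddc, the decarboxylase of dopamine synthesis, had a gene body region of 3.91 kb in replicate 1 that overlapped one of 3.21 kb in replicate 2, and a promoter region of 4.36 kb in replicate 1 alone.

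At the Dlk1-Meg3 cluster on chromosome 12 the marked members, Dlk1 and Dio3, stood at opposite ends. Dlk1, a Notch-related inhibitor of differentiation, had promoter regions of 28.5 kb (chr12:109432623-109461117) in replicate 1 and 21.9 kb (chr12:109433851-109455717) in replicate 2. With a further gene body region of 4.54 kb in replicate 2, the lists had 91.1% of the joined length in common, the highest value of the members. These regions reached 20.2 and 19 kb upstream of the Dlk1 start. Dio3, the deiodinase that inactivates thyroid hormone, was covered by promoter regions of 15.5 and 15.8 kb, which also named Dio3os and Mir1247. Distal regions of 4.79 and 4.66 kb that bore the name of Dio3 lay 47.1 and 45.7 kb from it. Meg3, the maternally expressed noncoding RNA, and Rtl1, a retrotransposon-derived gene of the placenta, lay between and were free of regions, the nearest to Meg3 being 69.2 and 79.7 kb away. Over the microRNA genes beyond Rtl1, from Mir541 to Mir410, replicate 2 alone had a region of 2.2 kb. Between Rtl1 and Dio3, both lists also had distal regions named for a gene outside the lists used here. They measured 8.1 kb in replicate 1, and 1.45 and 2.49 kb in replicate 2. Regions without a gene name lay inside the span as well, of 4.38 kb in replicate 1 and 2.47 kb in replicate 2. With these regions, the covered share of the 829 kb was 4.30% in replicate 1 and 3.62% in replicate 2.

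**Figure D2:**
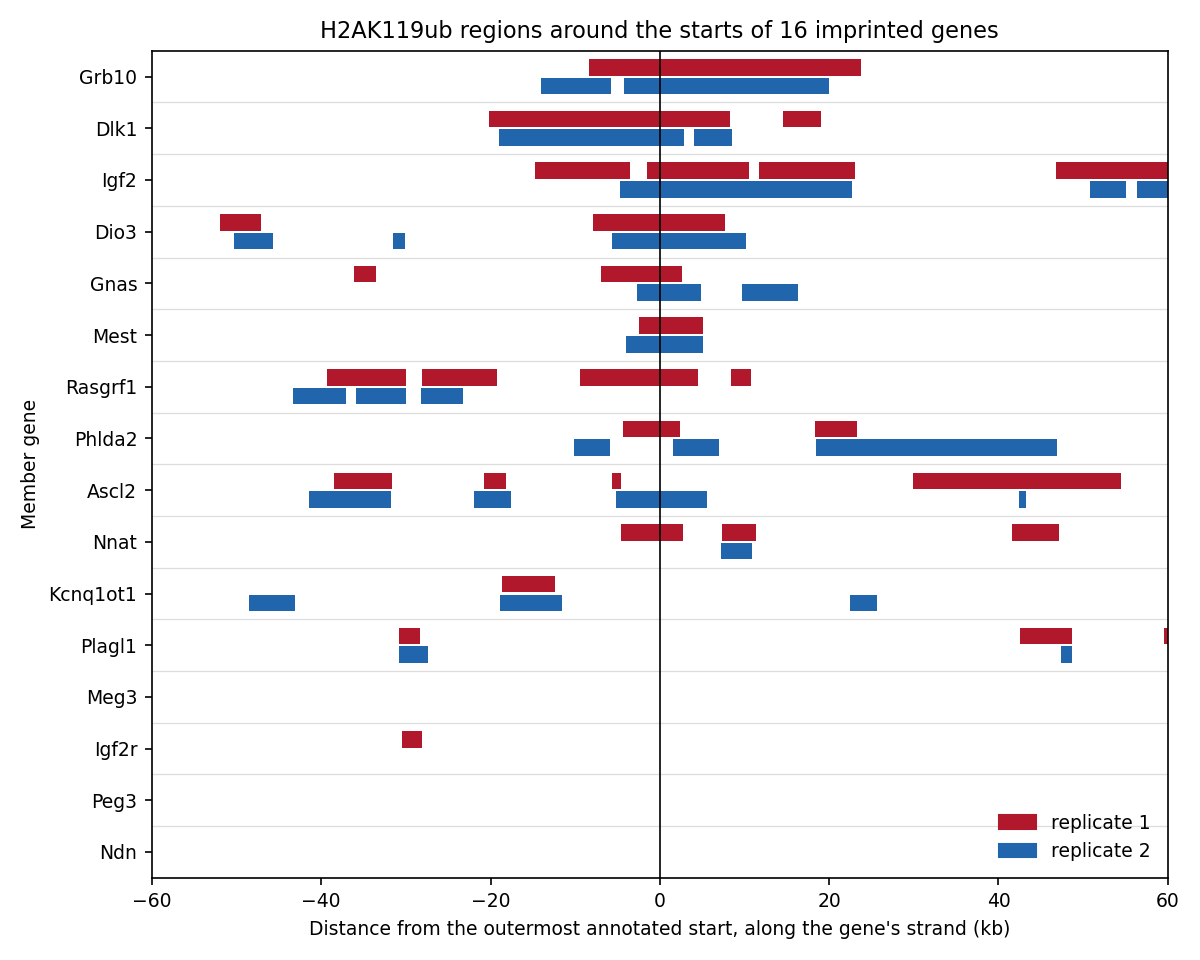
Extent of every H2AK119ub region within 60 kb of the outermost annotated start of 16 members, in kb along the gene's own strand, with upstream to the left and replicate 1 above replicate 2 in each row. Regions of both replicates cross the start of Grb10, Dlk1, Igf2, Dio3, Gnas and Mest. Rasgrf1 and Nnat are crossed in replicate 1 alone, and Meg3, Peg3 and Ndn have no bar.

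Gnas, which encodes the stimulatory G protein alpha subunit from nested transcripts, was marked at its outermost start. Promoter regions of 9.50 kb in replicate 1 (chr2:174277400-174286902) and 7.65 kb in replicate 2 (chr2:174281565-174289213) crossed that start. The other 3 listed starts, further along the gene, lay 27.1 kb or more from any region. Both regions overlapped Nespas, the paternally expressed antisense RNA. A further promoter region of 6.59 kb, named for both Gnas and Nespas, lay within Gnas in replicate 2 and was lacking in replicate 1. Since the lists do not tell strands apart, the mark at Gnas cannot be told apart from one at its antisense partner.

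Mest, an enzyme-like gene of the mesoderm, and the Peg10-Sgce pair had promoter regions in both replicates. That of Mest measured 7.63 and 9.09 kb, with 82.4% of the joined length in common, and spanned all 3 listed starts. Copg2, a coat protein gene beside Mest, was free of regions, the nearest being 8.9 kb away in replicate 1 and 5.39 kb away in replicate 2. Peg10, a retrotransposon-derived placental gene, and Sgce, a sarcoglycan gene, shared 1 region of 3.45 kb in replicate 1 and 1 of 3.13 kb in replicate 2, with 84.5% of the joined length in common. Sgce had a further gene body region of 5.49 kb in replicate 1 alone, and with it 33.3% of the joined length at Sgce was in common. Ppp1r9a, a regulator of protein phosphatase 1 in the same cluster, had none, and the nearest lay 155 kb away in both lists.

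Rasgrf1 and Plagl1 carried distal regions in both replicates, and Nnat was marked in replicate 1 alone. Rasgrf1, a Ras exchange factor, had distal regions in both lists, of which the nearest to the gene lay 18.9 kb away in replicate 1 and 22.9 kb away in replicate 2. A 14.0 kb promoter region over its start appeared in replicate 1 alone. Plagl1, a zinc finger regulator of growth, had distal regions 28.3 and 27.4 kb before the gene that were 2.47 and 3.44 kb wide. A further region of 6.12 kb lay 1.76 kb beyond the gene in replicate 1, where replicate 2 had a region that carried no Plagl1 name. The start itself had none. Nnat, the small membrane protein neuronatin, lay under a 7.28 kb promoter region in replicate 1 and had none in replicate 2, where the nearest lay 4.72 kb away. Blcap, the gene in whose intron Nnat sits, was named for promoter regions of 4.12 kb in replicate 1 and 3.68 kb in replicate 2.

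Some clusters were free of the mark, or nearly so. At Peg3, a zinc finger gene of maternal behaviour, and its neighbours Usp29 and Zim1, the nearest region lay 505 kb from the cluster in replicate 1 and 1829 kb from it in replicate 2. In the Snrpn-Ube3a cluster, the stretch lost in Prader-Willi and Angelman syndromes, 1 region of 1.56 kb over Peg12 was present in replicate 1, and in replicate 2 the nearest to Peg12 lay 1480 kb away. Snrpn, Ndn, Magel2, Mkrn3 and Ube3a, the ubiquitin ligase gene, had none in either list. Zrsr1, a retrocopy of a splicing factor gene, the noncoding Peg13 and Impact, a regulator of translation, also had none, with the nearest regions to Impact 10.7 and 13.4 kb away, at Osbpl1a. In the Igf2r-Airn cluster, Igf2r, the receptor that clears IGF2, and Slc22a2, a transporter gene, had none in either list, and Airn (2.34 kb) and Slc22a3 (1.32 kb) had narrow regions in replicate 1 alone. Among other protein-coding genes, 15439 of 21595 were likewise tied to no region in either list. Without heights or depth, a signal under the peak caller's threshold cannot be told apart from its absence.

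**Figure D3:**
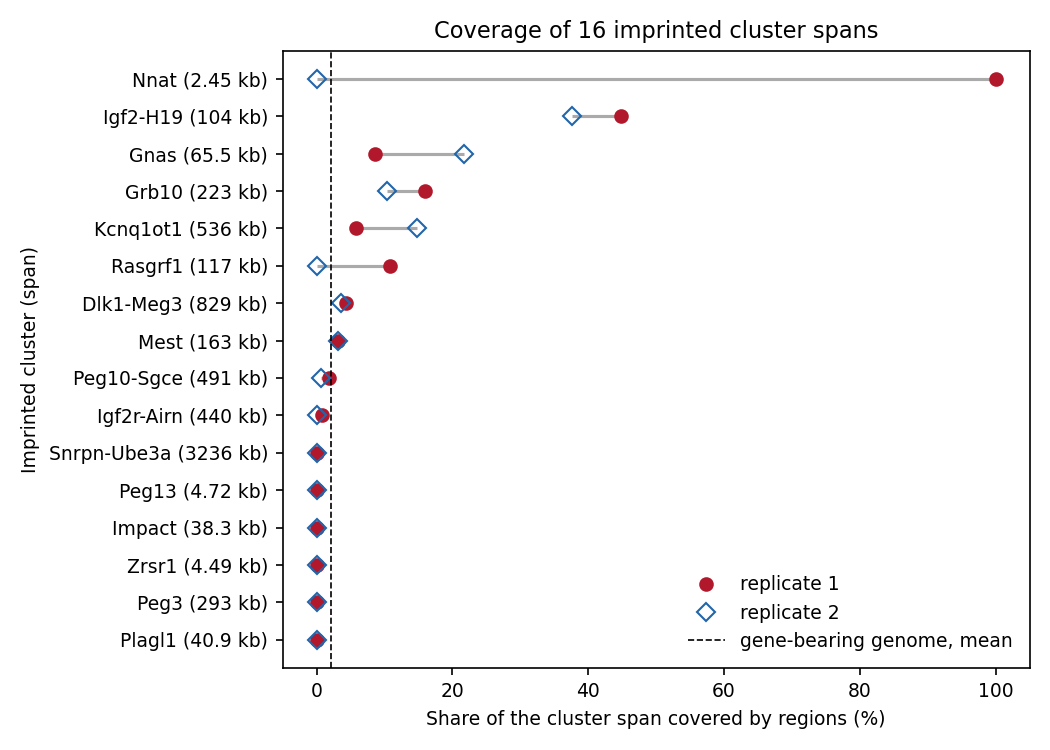
Share of each of the 16 cluster spans (from the first to the last base of its members, length in brackets) that regions covered, in percent, for replicate 1 (filled circles) and replicate 2 (open diamonds). The dashed line is the mean over the gene-bearing genome, 2.16%. Igf2-H19 stands at 44.8 and 37.6%, Nnat at 100% and 0%, and Peg3, Zrsr1, Impact, Peg13 and Plagl1 at 0% in both. The regions named for Plagl1 lie outside its span.

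Over the 16 spans together, 6.59 Mb, regions covered 2.88% in replicate 1 and 2.95% in replicate 2, against 2.3% and 2.02% of the gene-bearing genome. The Snrpn-Ube3a span alone takes up 3236 kb of the total.

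Members were grouped by the copy that is known to be expressed, a class set by hand and not measured in these cells. The groups may therefore differ from the copies in use in lingual epithelium. In both replicates, 10 of 25 paternally expressed members and 4 of 15 maternally expressed members were tied to a region. These are 40% and 26.7%, against 16.8% of protein-coding genes. The paternal and maternal groups include the 6 noncoding members, which the general share leaves out. Grb10 and Gnas, for which the expressed copy depends on tissue or transcript, were both tied to regions. For promoter regions in both replicates, the counts were 6 of 25 paternally expressed members and 1 of 15 maternally expressed members, namely Phlda2. These are 24% and 6.67%, against 8.82% of protein-coding genes, so the maternal count lies near the general share. The Phlda2 promoter window was covered in replicate 1 alone, and the replicate 2 region stopped 0.606 kb short of the gene. The gap between paternal and maternal members was not the same in each library. Replicate 1 named 11 of 25 and 1 of 15, while replicate 2 named 7 of 25 and 4 of 15. Of 21595 other protein-coding genes, replicate 1 named 2756 and replicate 2 named 2678. The difference between paternal and maternal members was not tested.

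The CpG content of the promoter windows overlapped between marked and unmarked members. In the outermost window of each gene, the 6 members covered in both replicates had 2 to 45 CpG dinucleotides (median 12.5), the 6 covered in 1 replicate had 2 to 26 (median 20) and the 21 covered in neither had 2 to 34 (median 13). Over all protein-coding genes with a window, the medians were 20 for the 934 covered in both, 18 for the 888 covered in 1 replicate and 13 for the 15452 covered in neither. The Peg3 and Ndn windows had 13 and 11 CpG dinucleotides. They lie between those of Dlk1 (9), Mest (8) and Igf2 (2) and those of Gnas (16), Dio3 (25) and Grb10 (45). Windows at inner starts of these genes had 7 to 24 at Igf2, 17 at Mest and 9 at Grb10, covered in both replicates. Those at Gnas had 27 to 40 and were covered in neither, so the order depends on the start used. The hexamer TGCCGC, which the imprint-protecting zinc finger protein ZFP57 binds when methylated, was searched for on both strands. It was found in 7 of 33 member windows (21.2%), against 14% of windows of all protein-coding genes. It was in 1 of the 6 member windows covered in both replicates, that of Grb10, and in 5 of the 21 covered in neither, against 19.3% and 13.5% of the windows of all protein-coding genes covered alike. Outside the outermost windows, it was also in those of the second Igf2 start and of the other Mest starts, which were covered in both. It was likewise in the window of an inner Snrpn start, which was covered in neither. A match of letters is not a bound site.

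**Figure D4:**
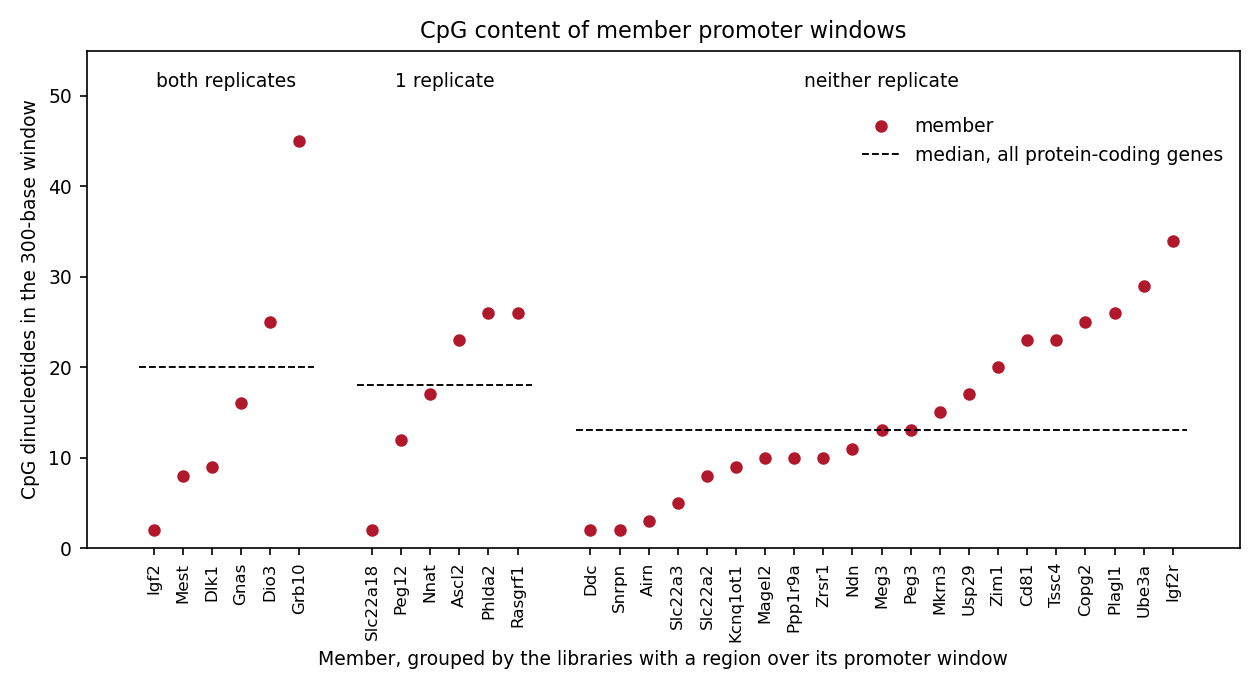
Number of CpG dinucleotides in the 300-base window at the outermost start of 33 members, grouped by whether regions covered the window in both replicates, in 1 or in neither. Dashed lines are the medians over all protein-coding genes covered alike (20, 18 and 13). Members covered in both range from Igf2 at 2 to Grb10 at 45, and those covered in neither from 2 to Igf2r at 34.

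Further imprinted genes and cluster neighbours were read from a list of 58 names, of which 57 matched the reference. Of these, 17 were tied to a region in both replicates and 12 were named for a promoter region in both. Among the 49 that are protein-coding, the counts were 15 (30.6%, 18.3 to 45.4%) and 10 (20.4%), which stand beside the 16.8% and 8.82% of all protein-coding genes. Wide promoter regions stood at Ampd3, an AMP deaminase gene (50.1 and 19.6 kb), at Zdbf2, a zinc finger gene (40.5 and 38.7 kb), and at Klf14, a transcription factor gene near Mest (27.9 and 21.9 kb). Igf2os lay under the regions of 12.0 and 27.4 kb that also named Igf2. Sfmbt2, itself a Polycomb-group gene, had promoter regions of 11.0 and 11.9 kb. The other genes with promoter regions in both were Tspan32, Asb4, Dio3os, Blcap, Gpr1, Gatm and Htr2a. Begain, beyond Dlk1, had gene body regions of 28.3 and 10.7 kb. Th, Kcnq1, H13 and Cdh15 had gene body or distal regions in both.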

How the data were processed

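Bowtie2 2.3.3 and SAMtools 0.1.19 are named, with no role, per the submitters' processing notes, and the build is mm10. For each replicate the authors deposited a region list with chromosome, first and last coordinate, location class and gene names, per the file headers. How regions were called, whether against the input, which coordinate base was used and what distances define the classes: not given in the sources used here. No gap between regions was under 999 bp, so nearby signals may stand as 1 region. Lists hold positions without heights, scores or p-values.

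Gene bounds and promoter windows came from RefSeq (GRCm38.p6). Names were matched by symbol, then by a synonym held by 1 gene (Nespas is listed there as Gnasas1). All 42 members matched, and 33 had a promoter window. Overlap was counted from 1 bp, width is the last minus the first coordinate, and the length in common is the overlap of a member's regions in the 2 lists over their union. A window counted as covered from 1 bp. Members, clusters, lists and the classes of expressed copy were set by hand with earlier results of these data known, and no test between groups was possible with 1 group. Text names all members, listed neighbours with regions in both replicates and genes sharing a member's region. Of the promoter sequences, 6 follow a rule of coverage in both replicates, at most 2 per cluster, and those of Peg3 and Ndn were added after their values were seen. Interval functions recovered the known answers on simulated intervals. Alternatives comprised either replicate, 1 replicate left out, other ties of region to gene, wider regions and wider spans. Software was pandas 2.3.3 with numpy 2.4.6 for tables, scipy 1.17.1 for intervals and matplotlib 3.10.9 for plots, under Python 3.11.15. The gene-bearing genome is the stretch between the outermost genes of each autosome and of X, summed.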

Additional observations from a re-analysis of the deposited data

How the results depend on the processing

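For 22 results, 114 values were computed under alternatives, of which 95 stayed within 1.5 times the count or within 1 SD and 19 moved, 9 of these among the 80 values of single clusters. The 16 of 42 members with a region in both replicates became 15 by gene name alone and 11 by overlap alone. They were 11 with regions above the median width and from 18 to 21 with 1 replicate left out. Other protein-coding genes, 3626 of 21595 in both replicates, were from 4865 to 4917 with 1 replicate left out. Counted by cluster, 9 of 16 had such a member, a change of unit that the tally of 19 includes. The 9 members named for a promoter region became 18 with either replicate and from 13 to 14 with 1 replicate left out. Other protein-coding genes named so, 1899 of 21595, became 3535 with either replicate and from 2678 to 2756 with 1 left out. The 17 further genes became 10 with regions above the median width and from 18 to 19 with 1 replicate left out. The covered share of all spans, 2.91%, was 3.77% with 50 kb on each side, 2.45% with regions overlapped by the other replicate, 2.48% with regions above the median width and from 2.88 to 2.95% with 1 replicate left out. The share of member regions overlapped by the other replicate, 75.1%, was 42.2% when an overlap of 50% of both regions was required, and from 63.3 to 87% with 1 replicate left out. The median width, 5985 bp, was 7576 bp for regions over gene bounds, 10564 bp for promoter regions and from 5804 to 6165 bp with 1 replicate left out. The cause of these shifts was not tested. With 2 replicates, a mean without 1 of them always stays within the SD. No paired analysis was possible because the replicates form a single group. Absence of a region could not be limited further, since depth is unknown.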
